A study of Mus musculus with 36 samples.

Results

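Control bone marrow plasma cells formed 2 groups of this series, Control(M) and Control(D), chosen by their group labels. They made up 8 of the 36 libraries, 4 in Control(M) and 4 in Control(D). Control(M) is the control of the cohort built around MMSET, a name used for the histone methyltransferase gene Nsd2, and Control(D) is the control of the cohort built around the cyclin D1 gene Ccnd1. Both groups were C57/BL6 mouse cells sorted from bone marrow for the surface proteins CD138 and TACI with 2000 cells per library, and the design text adds a reporter in brackets. The labels give no alleles, Cre driver, age or sex for the controls, and they do not say in which groups the reporter was used. The libraries with Ikk2ca alone, Ikk2ca(M) and Ikk2ca(D) with 4 each, were used to ask whether a difference between the cohorts recurred outside the controls. No label ties a library to an animal of its own, and a p-value here measures only how these libraries vary, which may be technical.

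Plasma cells are terminally differentiated B lineage cells that secrete antibody. The transcription factors Blimp-1, IRF4 and XBP1 shut down most of the B cell program and enlarge the endoplasmic reticulum, and one rearranged heavy chain gene and one light chain gene then supply most of the messenger RNA. Bone marrow holds long-lived plasma cells of IgG, IgA and IgM class, and the joining chain, encoded by Jchain, links IgA into dimers and IgM into pentamers.

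The 8 control libraries held 59.4 to 74.8 M estimated reads each, 20.0 to 27.2 M of them outside the immunoglobulin genes, and 12297 to 13475 genes had at least 10 reads. Across well expressed genes, immunoglobulin genes included, library 3 of Control(M) correlated with the other 7 at a Pearson r of 0.750 to 0.810. The scale was log2 CPM (CPM, read counts relative to the scaled library total). The remaining pairs stood between 0.831 and 0.951, a description across genes that are not independent. Xist, transcribed from the inactive X chromosome of female cells, had 134, 0.161, 93.7 and 0.0793 CPM in Control(M) libraries 1 to 4, against 84.6, 2.23, 0.101 and 1.70 CPM in Control(D) libraries 1 to 4. The Y-linked Ddx3y had 0, 35.6, 0 and 15.6 CPM in Control(M), against 0, 31.0, 32.8 and 37.7 CPM in Control(D). Thus 2 of 4 Control(M) and 1 of 4 Control(D) libraries had high Xist and no Ddx3y reads. The labels give no sort or sequencing date, so the cohort and any batch that follows it cannot be told apart.

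The sorted cells carried the transcripts they were sorted for. Sdc1, which encodes CD138, had 56.3, 43.9, 36.7 and 61.3 TPM in Control(M) and 50.8, 40.0, 43.6 and 48.3 TPM in Control(D) (TPM, a level corrected for transcript length and summing to the same total in each library). Tnfrsf13b, which encodes TACI, had 62.4, 65.8, 57.7 and 82.0 TPM in Control(M) and 91.2, 82.5, 69.96 and 74.6 TPM in Control(D). Both genes were present in all 8 libraries and the ranges of the groups overlapped. Pax5, the factor that holds cells in the B cell state and is silenced in plasma cells, stood at 0.458 ± 0.550 TPM in Control(M) and 0.449 ± 0.366 TPM in Control(D) (SD, n = 4 each).

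Immunoglobulin transcripts filled most of each control library. They took 66.6, 67.8, 66.6 and 65.6% of reads in Control(M), against 62.2, 63.6, 64.0 and 63.9% in Control(D). Every Control(M) library was above every Control(D) library, and the means were 66.6% ± 0.901 in Control(M) and 63.4% ± 0.825 in Control(D) (SD, n = 4 each). The 2-sided exact permutation p was 0.0286, the smallest that 4 against 4 libraries allow, and 0.0762 after Benjamini-Hochberg adjustment over 8 shares. In TPM the difference was 0.637 percentage points in place of 3.21, with an exact permutation p of 0.229. Igkc, the kappa light chain constant region, was the most abundant gene, at 263760 ± 14659 TPM in Control(M) and 247097 ± 10399 TPM in Control(D) (SD, n = 4 each).

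Outside immunoglobulin and mitochondrial genes, Jchain led in abundance. It had 9605, 8261, 8127 and 11623 TPM in Control(M), against 22803, 22740, 25543 and 16212 TPM in Control(D). All Control(M) libraries were below all Control(D) libraries, but the edgeR test did not call the gene, with a log2 fold change of -1.21 ± 0.52 (SE) on the count scale and an adjusted p of 0.427. Slpi, a secreted inhibitor of leukocyte proteases, ranked second by the mean of the 8 libraries. It had 2429, 19586, 963 and 1881 TPM in Control(M), against 2403, 1968, 2768 and 2334 TPM in Control(D). Library 2 of Control(M) stood apart: the log2 fold change of Slpi was 1.54 with all libraries and -0.51 without that one.

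**Figure D1:**
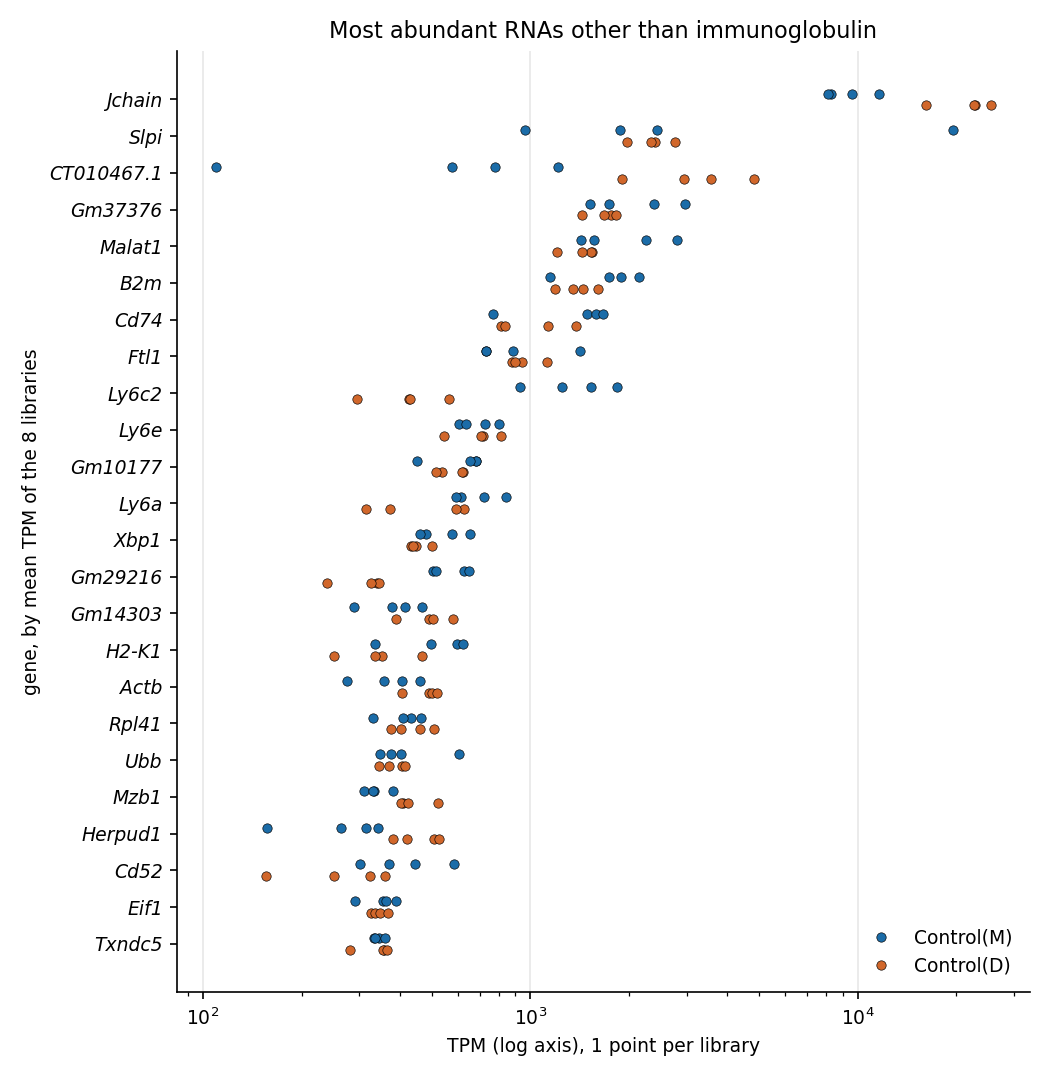
TPM (log axis) of the 25 most abundant RNAs other than immunoglobulin and mitochondrially encoded ones, with 1 of them not shown, ordered by the mean of the 8 control libraries, with 1 point per library. Jchain lies at 8127 to 11623 TPM in Control(M) and 16212 to 25543 TPM in Control(D), and library 2 of Control(M) stands apart for Slpi at 19586 TPM.

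The other leading RNAs fell into a few families. Malat1, a nuclear long non-coding RNA, had 2016 ± 643 TPM in Control(M) and 1430 ± 160 TPM in Control(D). The MHC class I light chain B2m had 1732 ± 424 TPM in Control(M) and 1397 ± 175 TPM in Control(D), and H2-K1, a class I heavy chain, had 513 ± 130 TPM in Control(M) and 351 ± 88.4 TPM in Control(D) (SD, n = 4 each). Cd74, the invariant chain of MHC class II, had 1378 ± 412 TPM in Control(M) and 1037 ± 267 TPM in Control(D). The Ly6 surface proteins Ly6c2, Ly6e and Ly6a, the ubiquitin gene Ubb, the ferritin light chain Ftl1, beta-actin (Actb), Rpl41, Cd52 and Eif1 were also among the 25.

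Secretory genes completed the list. Xbp1, the transcription factor that drives the secretory program, had 481, 575, 461 and 652 TPM in Control(M) and 446, 433, 439 and 500 TPM in Control(D). Txndc5, a disulfide isomerase of the endoplasmic reticulum, varied little, at 343 ± 12.1 TPM in Control(M) and 339 ± 38.4 TPM in Control(D). Mzb1, a chaperone of IgM and IgA assembly, had 338 ± 30.7 TPM in Control(M) and 438 ± 55.6 TPM in Control(D). Herpud1, which serves the degradation of misfolded proteins, had 342, 156, 264 and 316 TPM in Control(M), against 507, 421, 526 and 379 TPM in Control(D). The Herpud1 libraries did not overlap, while its log2 fold change of -0.74 ± 0.26 (SE) had an edgeR adjusted p of 0.371. The 25 genes also took in CT010467.1, annotated as ribosomal RNA, 3 pseudogenes (Gm10177, Gm29216 and Gm14303) and Gm37376, a gene model that lies within Malat1.

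Of these 25 genes, 2 (Ly6c2 and Gm29216) had all Control(M) libraries above all Control(D) libraries in TPM, 4 (Jchain, CT010467.1, Mzb1 and Herpud1) had all below, and 19 overlapped. Over all genes tested, in CPM, 2.23% had all Control(M) libraries above and 2.28% all below, 4.51% in either direction. The 25 genes held 26.7 to 42.9% of non-immunoglobulin TPM in Control(M) and 32.7 to 41.9% in Control(D). Ranked in either group alone, 23 of the 25 stayed among the first 25, and ranked by CPM in place of TPM 17 stayed. CT010467.1 had 1215, 778, 577 and 110 TPM in Control(M), against 4813, 3560, 2943 and 1911 TPM in Control(D), with a log2 fold change of -2.26 ± 0.73 (SE) and an edgeR adjusted p of 0.346. This ribosomal RNA was lower in all Control(M) libraries, and its part in the other differences was not tested.

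The heavy chain class differed most visibly between the controls. Ighm, the constant region of IgM, gave 64.6, 62.2, 80.3 and 72.4% of heavy chain constant reads in Control(M), against 16.2, 21.3, 6.89 and 46.2% in Control(D). Igha, the constant region of IgA, gave 24.0, 17.0, 5.20 and 14.5% in Control(M), against 64.9, 58.1, 74.3 and 29.0% in Control(D). Neither pair of ranges overlapped, and Control(D) library 4 lay nearest to Control(M) in both. The means were 69.9% ± 8.19 for Ighm in Control(M) and 22.6% ± 16.8 in Control(D), and 15.2% ± 7.76 for Igha in Control(M) and 56.6% ± 19.6 in Control(D) (SD, n = 4 each). Both differences had an exact permutation p of 0.0286 and an adjusted p of 0.0762 over the 8 shares. With each library left out in turn, the Ighm difference stayed between 42.0 and 55.1 percentage points. In bulk RNA, fewer cells of a class and less RNA per cell cannot be told apart.

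**Figure D2:**
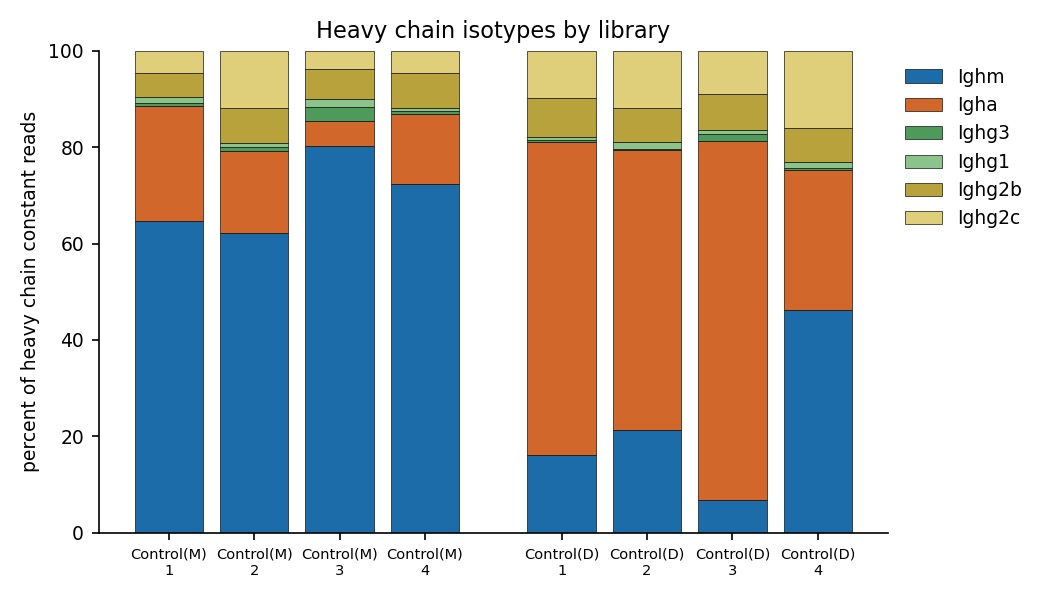
Share of heavy chain constant reads (percent) by class, with 1 stacked bar per library and Control(M) at the left. Ighm takes 62.2 to 80.3% in the Control(M) libraries and 6.89 to 46.2% in the Control(D) libraries, and Igha takes 5.20 to 24.0% in Control(M) and 29.0 to 74.3% in Control(D).

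The other classes overlapped between the groups. The 4 IgG constant regions together gave 11.4, 20.8, 14.5 and 13.1% in Control(M) and 18.9, 20.6, 18.8 and 24.8% in Control(D), with an exact permutation p of 0.114 (adjusted 0.229). Ighg2b and Ighg2c carried most of this share, at 5.10 to 7.25% and 3.69 to 11.9% in Control(M) and at 6.98 to 8.16% and 8.92 to 16.1% in Control(D). Ighg1 stayed between 0.698 and 1.54% in Control(M) and between 0.582 and 1.57% in Control(D), and Ighg3 reached 2.96% in Control(M) library 3. Ighd gave at most 0.00735% in Control(M) and 0.00841% in Control(D), and Ighe gave at most 0.0106% in Control(M) and 0.00297% in Control(D). Lambda chains gave 5.20% ± 1.44 of light chain constant reads in Control(M) and 7.47% ± 1.97 in Control(D) (SD, n = 4 each), with an exact permutation p of 0.143 (adjusted 0.229).

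In the fit across all genes these classes were not called. Ighm had a log2 fold change of 1.66 ± 0.63 (SE, adjusted p 0.416) and Igha one of -1.88 ± 1.18 (SE, adjusted p 0.643) by the edgeR quasi-likelihood test. In the Ikk2ca libraries, Ighm gave 76.5 to 96.8% in Ikk2ca(M) and 23.5 to 95.3% in Ikk2ca(D), and 1 Ikk2ca(D) library lay within the Ikk2ca(M) range. Igha gave 0.181 to 13.8% in Ikk2ca(M) and 3.92 to 48.6% in Ikk2ca(D).

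Ccr10 and Itgb7, genes known from IgA plasma cells, were picked after their values were seen and set beside these shares as a description. Ccr10, the receptor for the mucosal chemokine CCL28, had 21.1, 16.5, 9.29 and 8.56 CPM in Control(M), against 67.5, 45.1, 72.6 and 23.8 CPM in Control(D). Itgb7, an integrin subunit used in homing to mucosa, had 80.1, 31.7, 65.2 and 55.5 CPM in Control(M), against 113, 117, 85.7 and 80.7 CPM in Control(D). Both genes had all Control(M) libraries below all Control(D) libraries, with log2 fold changes of -1.91 ± 0.81 and -0.77 ± 0.44 (SE) and edgeR adjusted p of 0.426 and 0.573. Library 4 of Control(D), lowest in Igha, was also the lowest of its group in Jchain, Ccr10 and Itgb7. Library 3 of Control(M), lowest of all 8 in Igha, was the lowest of its group in Jchain but not in Ccr10 or Itgb7.

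Both Ighm transcript forms were present, and they are shown because they separate the secreted antibody from the membrane receptor. The secreted form ends with a tail read from the last shared exon, and the membrane form is spliced to exons for a transmembrane anchor. In both sequences the lower-case bases are the last 30 shared coding bases and the capitals are the bases found in that form alone. The sequences are from the minus strand of GRCm38 (GENCODE release 21 transcripts), and the coding bases of each form alone lie at chr12:113420870-113420928 and chr12:113418829-113419068.
Ighm secreted form: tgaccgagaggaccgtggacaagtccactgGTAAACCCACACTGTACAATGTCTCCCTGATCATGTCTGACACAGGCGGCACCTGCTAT
Ighm membrane form: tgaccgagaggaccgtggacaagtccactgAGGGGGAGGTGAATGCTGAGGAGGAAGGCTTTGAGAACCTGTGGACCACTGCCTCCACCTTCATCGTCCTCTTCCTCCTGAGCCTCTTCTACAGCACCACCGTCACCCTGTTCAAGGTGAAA

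The membrane form gave 0.760, 0.504, 0.862 and 0.664% of Ighm TPM in Control(M) and 1.23, 0.657, 0.917 and 0.904% in Control(D). For Igha it gave 0.0910 to 0.132% in Control(M) and 0.0942 to 0.138% in Control(D). The secreted form thus held nearly all TPM of both genes in each control library, and the membrane shares overlapped between the groups. These splits rest on the authors' assignment of reads between transcripts of 1 gene.

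Variable (V) segments differed in identity and in evenness. The following values were chosen after they were seen and are a description with no test. Ighv11-2 gave 11.6, 7.09, 30.8 and 12.7% of heavy chain V reads in Control(M), against 1.317, 2.73, 2.06 and 4.39% in Control(D). Igkv14-126 gave 13.03, 5.11, 23.6 and 7.65% of kappa V reads in Control(M), against 2.16, 3.63, 3.47 and 4.71% in Control(D). Neither V gene overlapped between the groups. Ighv11-2 paired with Igkv14-126 (also called VH11 and Vk9) is known as a recurrent, nearly germline antibody against phosphatidylcholine made by B-1a cells, a self-renewing lineage that yields much natural IgM. In the fit across all genes neither V gene was called, with log2 fold changes of 2.31 ± 2.04 and 2.05 ± 2.04 (SE) and edgeR adjusted p of 0.835 and 0.879.

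Ighv1-26, a segment of the large Ighv1 family, was the leading heavy chain V gene in all 4 Control(D) libraries. It gave 1.31, 2.58, 2.08 and 6.43% in Control(M), against 5.96, 11.5, 7.15 and 7.57% in Control(D), and the ranges overlapped. In Control(M) the leading segment was Ighv11-2 in libraries 1 and 3, Ighv9-3 in library 2 (10.5%) and Ighv5-17 in library 4 (13.99%). The 3 segments are shown because their shares set the groups apart or lead Control(D). Capitals start at the last in-frame cysteine codon, where the third complementarity-determining region (the antigen loop completed by joining) begins. The last 240 germline coding bases of each are given from GRCm38 (GENCODE release 21), at chr12:114048241-114048480 (minus strand), chr6:67896403-67896642 (plus strand) and chr12:114788372-114788611 (minus strand).
Ighv11-2: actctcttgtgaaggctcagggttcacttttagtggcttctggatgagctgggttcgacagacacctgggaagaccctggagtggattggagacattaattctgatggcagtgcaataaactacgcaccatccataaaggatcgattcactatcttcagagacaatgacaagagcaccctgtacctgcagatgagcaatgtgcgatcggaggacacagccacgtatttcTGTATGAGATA
Igkv14-126: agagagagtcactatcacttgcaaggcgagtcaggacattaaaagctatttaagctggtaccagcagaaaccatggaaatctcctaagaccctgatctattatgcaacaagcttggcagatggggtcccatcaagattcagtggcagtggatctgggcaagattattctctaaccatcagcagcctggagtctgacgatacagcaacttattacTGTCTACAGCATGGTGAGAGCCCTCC
Ighv1-26: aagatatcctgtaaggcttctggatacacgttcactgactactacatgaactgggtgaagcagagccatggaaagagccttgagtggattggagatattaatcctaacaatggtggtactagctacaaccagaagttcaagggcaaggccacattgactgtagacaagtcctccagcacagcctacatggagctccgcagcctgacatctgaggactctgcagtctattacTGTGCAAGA

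Ighv11-1, the other member of the Ighv11 family, gave at most 0.189% in Control(M) and 0.120% in Control(D), and Ighv12-3, also known from antibodies to phosphatidylcholine, gave at most 0.110% in Control(M) and 0.410% in Control(D). Reads of near-identical V segments can be split or moved between them, so single shares are uncertain. Evenness was measured by the effective number of V genes, the number of equally used genes that would give the observed inequality (inverse Simpson index). For heavy chains it was 20.7, 26.3, 8.27 and 17.1 in Control(M), against 37.5, 31.6, 39.1 and 38.4 in Control(D). For kappa chains it was 22.1, 8.75, 8.24 and 13.1 in Control(M), against 32.8, 28.2, 32.6 and 28.3 in Control(D). Every Control(M) library was less even than every Control(D) library for both chains.

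**Figure D3:**
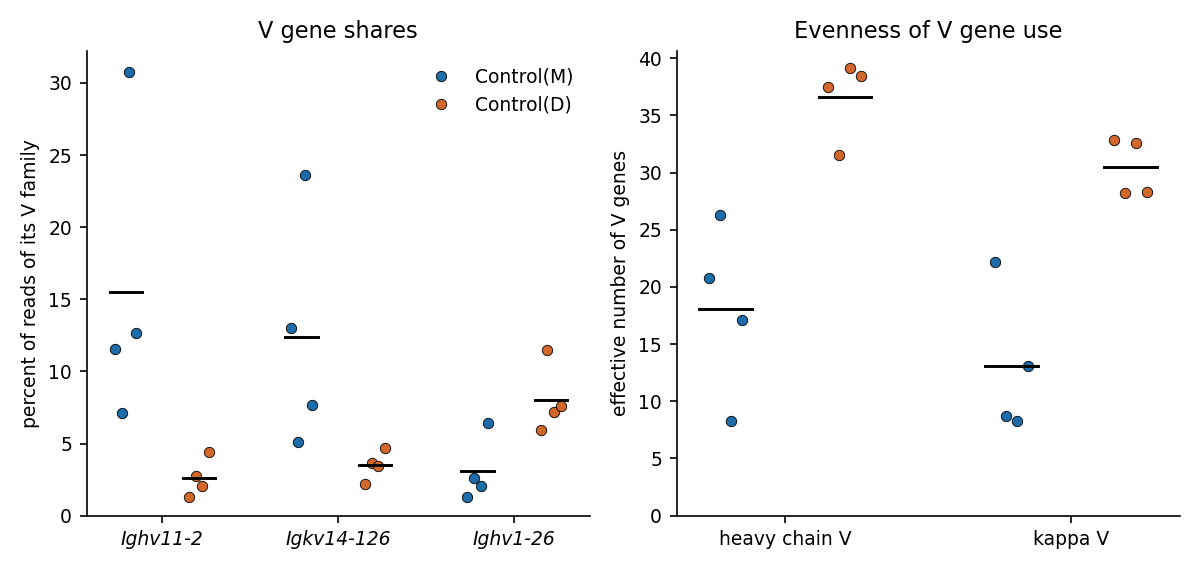
Left, share of the reads of its V family (percent) for Ighv11-2, Igkv14-126 and Ighv1-26; right, effective number of heavy chain and kappa V genes. Points are libraries, lines are group means and Control(M) is left of Control(D) in each pair; the effective number lies at 8.27 to 26.3 in Control(M) and 31.6 to 39.1 in Control(D) for heavy chains.

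Single kappa segments led different Control(M) libraries. Igkv1-117 gave 28.4% of kappa V reads in library 2, and Igkv14-126 (23.6%) with Igkv6-20 (19.8%) led library 3. Igkv3-4 gave 18.5% in library 4. In Control(D) the leading kappa segment gave between 8.37 and 9.36% and was a different gene in each library, namely Igkv8-30, Igkv10-96, Igkv1-110 and Igkv4-55. Spread between libraries followed the same division. The median SD of log2 CPM over 142 V genes was 1.28 in Control(M) and 0.71 in Control(D), against 0.25 in Control(M) and 0.20 in Control(D) over 1848 other genes of at least 5 mean log2 CPM. In the Ikk2ca libraries the effective number of heavy chain V genes was 2.12 to 8.14 in Ikk2ca(M) and 1.22 to 29.1 in Ikk2ca(D), and 1 Ikk2ca(D) library was 90.3% Ighv11-2 and 96.2% Igkv14-126.

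Few genes were called between the cohorts' controls in the main fit, while some other measures gave many more. Of 17116 genes tested, 7 were called by the edgeR quasi-likelihood test at an adjusted p under 0.05, which is 0.0409% of those tested, and all 7 were higher in Control(M). At an unadjusted p under 0.05 the count was 1780 (10.4%). Libraries did not overlap for 772 genes (4.51%), 382 (2.23%) with Control(M) above and 390 (2.28%) with Control(M) below. The count of 7 was sensitive: leaving out Control(D) library 2 left 0 calls, and leaving out Control(D) library 3, Control(M) library 2 or Control(M) library 3 left 2 calls each. DESeq2 called 421 genes, all 7 among them, whereas limma voom called 6 and a fit of only the 8 control libraries called 6, with 0 and 1 of the 7 shared.

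Large2, an enzyme that extends the laminin-binding glycan of dystroglycan (chr2:92365046-92374869), had 11.3, 11.9, 3.97 and 14.1 CPM in Control(M), against 2.05, 1.21, 2.23 and 1.09 CPM in Control(D). It rose by a log2 fold change of 2.65 ± 0.44 (SE, edgeR adjusted p 0.0169), with all 4 Control(M) libraries above all 4 Control(D) libraries. Hivep3, a zinc finger protein that binds kappa B-like DNA motifs (chr4:119733784-120138045), had 18.8, 26.3, 25.3 and 29.0 CPM in Control(M), against 11.6, 5.01, 8.66 and 12.2 CPM in Control(D). Its log2 fold change was 1.41 ± 0.27 (SE, edgeR adjusted p 0.0384), and the groups did not overlap. Gpm6a, a membrane glycoprotein best known from neurons (chr8:54954843-55060871), had 36.4, 44.7, 36.8 and 41.9 CPM in Control(M), against 12.1, 12.3, 10.6 and 18.8 CPM in Control(D). It rose by 1.57 ± 0.32 on the log2 scale (SE, edgeR adjusted p 0.0494), also without overlap.

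Cgrrf1, a RING finger ubiquitin ligase (chr14:46832125-46854193), had 9.39, 13.5, 8.95 and 8.69 CPM in Control(M), against 4.28, 4.17, 6.71 and 3.77 CPM in Control(D). Its log2 fold change was 1.10 ± 0.22 (SE, edgeR adjusted p 0.0488). Tdrkh, a Tudor domain protein of the piRNA pathway (chr3:94413273-94434668), was near the limit of detection, at 0.512, 1.53, 0.697 and 3.38 CPM in Control(M) and 0.108, 0, 0 and 0.0325 CPM in Control(D). Its 384 reads in Control(M) and 9 in Control(D) gave a log2 fold change of 5.37 ± 0.96 (SE, edgeR adjusted p 0.0235). The remaining calls were gene models without a name. The pseudogene Gm11830 averaged 6.05 ± 2.76 CPM in Control(M) and 0.727 ± 0.365 CPM in Control(D), and Gm38226 had 672 reads in Control(M) and 0 in Control(D).

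**Figure D4:**
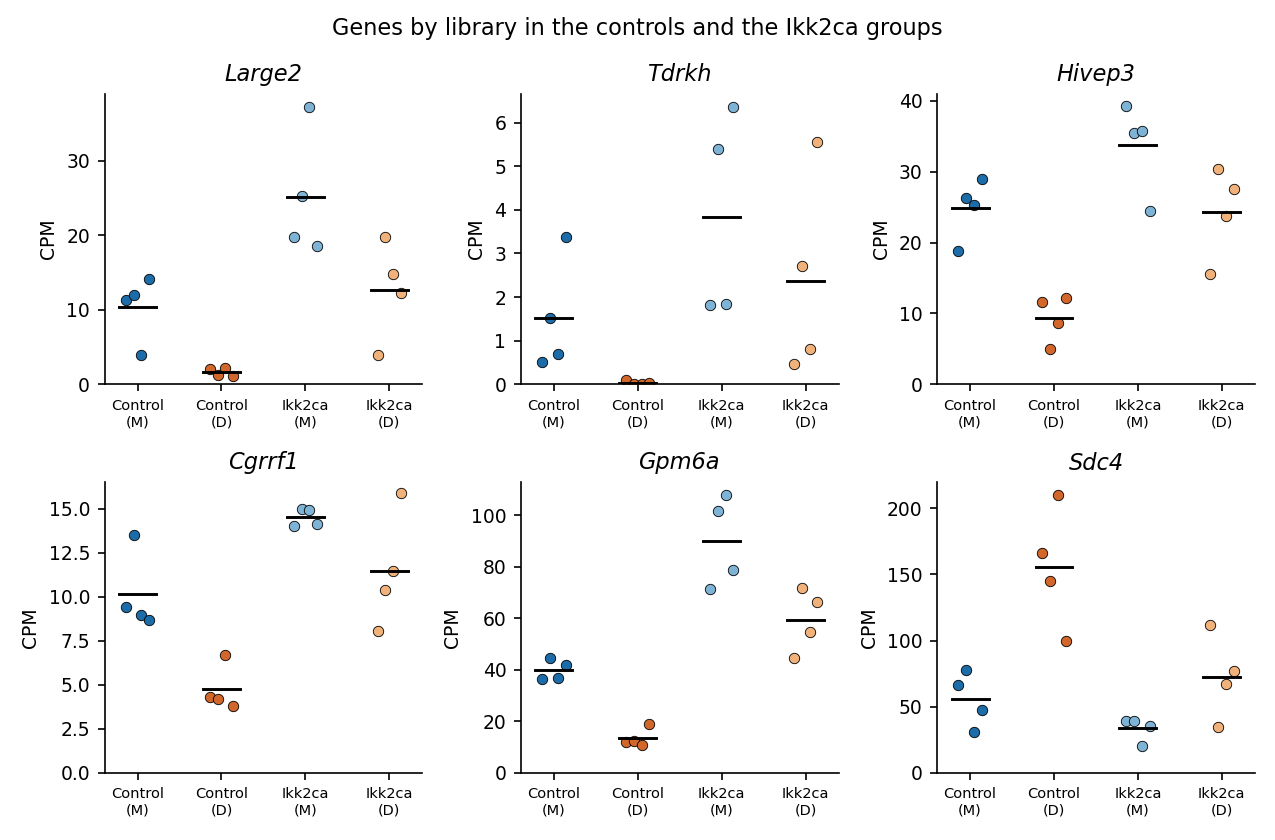
CPM by library of the 5 named genes called between the controls and of Sdc4, which was not called, in Control(M), Control(D), Ikk2ca(M) and Ikk2ca(D). Points are libraries and lines are means; Large2 averages 10.3 CPM in Control(M) and 1.65 CPM in Control(D), and Ikk2ca(M) and Ikk2ca(D) overlap for all 6 genes shown.

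For the same genes the Ikk2ca libraries of the cohorts overlapped. Large2 averaged 25.2 ± 8.54 CPM in Ikk2ca(M) and 12.7 ± 6.62 CPM in Ikk2ca(D), Hivep3 averaged 33.8 ± 6.42 CPM in Ikk2ca(M) and 24.4 ± 6.42 CPM in Ikk2ca(D), and Gpm6a averaged 89.9 ± 17.7 CPM in Ikk2ca(M) and 59.4 ± 12.2 CPM in Ikk2ca(D) (SD, n = 4 each). Their edgeR adjusted p were 0.607, 0.698 and 0.644. Some differences not called between the controls, picked after being seen, recurred without overlap. Jchain had 3433 to 13071 CPM in Ikk2ca(M) and 14048 to 43721 CPM in Ikk2ca(D). Ccr10 had 0.739 to 1.27 CPM in Ikk2ca(M) and 4.72 to 31.3 CPM in Ikk2ca(D). CT010467.1 had 1096 to 4901 CPM in Ikk2ca(M) and 5896 to 25000 CPM in Ikk2ca(D). The edgeR adjusted p were 0.515, 0.328 and 0.607 in turn. Itgb7, Ly6c2, Ighm, Igha, Ighv11-2, Igkv14-126 and Ggh overlapped. Across all genes the edgeR test called 0 between Ikk2ca(M) and Ikk2ca(D), with 1390 (8.12%) at an unadjusted p under 0.05, while DESeq2 called 294 and limma voom 3. The test of the difference of the cohort effect between Ikk2ca and control libraries likewise called 0 (edgeR; 1079 genes or 6.3% unadjusted), while DESeq2 called 270 and limma voom 1. Over all 8 groups of the series, Control(D) had the lowest median CPM for Large2, Tdrkh, Hivep3, Cgrrf1 and Gpm6a. These genes were called for being lower in Control(D) than in Control(M), so the selection itself favours that rank. For Large2 the Control(D) median was 1.63 CPM, against 5.58 CPM in the next lowest group, Ccnd1.

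No gene passed the threshold in the lower direction with edgeR, against 140 with DESeq2, which called 281 in the higher direction. Among the 6 with the smallest p, Sdc4, a heparan sulfate proteoglycan of the cell surface, had 66.6, 77.8, 30.6 and 47.3 CPM in Control(M), against 167, 145, 210 and 99.8 CPM in Control(D). Its log2 fold change was -1.49 ± 0.33 (SE, edgeR adjusted p 0.0902), without overlap. Glipr1, a secreted CAP domain protein, averaged 66.8 ± 11.7 CPM in Control(M) and 154 ± 46.1 CPM in Control(D) (SD, n = 4 each, adjusted p 0.141 by edgeR). The remaining 4 were Xk, Exosc5 of the RNA exosome, Eif4a3 of the exon junction complex and the splicing factor Rbm22, with edgeR adjusted p of 0.104 to 0.141.

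Gt(ROSA)26Sor and Rtn4 were picked after their values were seen. Gt(ROSA)26Sor, a non-coding transcript of the locus often used to house transgenes (chr6:113067428-113077333), had 21.8, 14.6, 12.5 and 24.2 CPM in Control(M), against 0.216, 0.239, 0.152 and 5.6002 CPM in Control(D). Its log2 fold change was 3.56 ± 0.76 (SE, edgeR adjusted p 0.0899). Its median was 7.43 CPM in Ikk2ca(M) and 7.81 CPM in Ikk2ca(D), so 3 of the Control(D) libraries were below every library of those groups. The median was 6.98 CPM in Ccnd1 and 11.8 CPM in MMSET. With 1.09 CPM in Ccnd1-Ikk2ca and 1.47 CPM in MMSET-Ikk2ca, a low level was not particular to Control(D). Gt(ROSA)26Sor is annotated as antisense, and reads of an overlapping gene cannot be told apart without strand. Ggh, which trims folate, was named by its spread and had 59.1, 61.8, 94.7 and 139 CPM in Control(M), against 12.6, 18.0, 22.7 and 29.6 CPM in Control(D) (log2 fold change 2.10 ± 0.46 SE, edgeR adjusted p 0.0902). Rtn4, a reticulon that shapes the endoplasmic reticulum, averaged 55.1 ± 26.5 CPM in Control(M) and 20.9 ± 3.31 CPM in Control(D) (SD, n = 4 each, edgeR adjusted p 0.0742).

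The genes that the group names refer to were read in the controls as a check. Nsd2 had 2.81, 4.22, 4.41 and 1.87 CPM in Control(M) and 6.40, 3.14, 6.65 and 8.36 CPM in Control(D), an overlap. Ccnd1 had 0.0310, 0.145, 0.957 and 0.0159 CPM in Control(M) and 1.28, 0.676, 0.609 and 0.812 CPM in Control(D), also an overlap. Neither was called (edgeR adjusted p 0.624 and 0.568), and Ikbkb, which encodes the kinase IKK2, had an adjusted p of 1. These values are controls only and were not compared with the transgenic groups.

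With edgeR, gene lists gave no calls in either direction beside the background of 0.0409%. DESeq2 called 421 of all 17116 genes, the background for its calls in lists, and no test set the lists against it. Of the identity and pathway lists it called 9 genes. Sel1l, Ly6d, Il6st, Mcl1, Gbp7, Zbp1, mt-Atp6 and mt-Atp8 were higher, and Rsad2, with reads in 1 control library alone, was lower. Gbp7 also passed in edgeR with only the 2 control groups fitted. Among markers of other cell types, DESeq2 called Ly6c2 and Cd34 higher and Cpa3 lower. Of 27 plasma cell identity genes 0 were called, and their median log2 fold change was -0.05, against 0.00 over all genes tested. Within it Bhlha15, the secretory transcription factor Mist1, had 113, 131, 119 and 120 CPM in Control(M), against 148, 190, 163 and 174 CPM in Control(D), without overlap (edgeR adjusted p 0.421). Creld2, a chaperone induced by endoplasmic reticulum stress, had 600, 749, 643 and 838 CPM in Control(M), against 481, 438, 535 and 550 CPM in Control(D), also without overlap (edgeR adjusted p 0.46). Prdm1, which encodes Blimp-1, stood at 8.51 ± 3.10 TPM in Control(M) and 11.2 ± 3.98 TPM in Control(D) (SD, n = 4 each), and Irf4 at 8.64 ± 1.06 TPM in Control(M) and 10.2 ± 2.10 TPM in Control(D).

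Of 35 tested genes for import, folding and secretion 0 were called, and the median log2 fold change was 0.04. Summed over the list, the level was 14393 to 16011 CPM in Control(M) and 14183 to 16099 CPM in Control(D), which overlapped almost fully. Sel1l, the adaptor of the Hrd1 degradation complex, had 1361, 1227, 846 and 1184 CPM in Control(M), against 459, 535, 592 and 597 CPM in Control(D). The log2 fold change was 1.08 ± 0.33 (SE), and edgeR gave an adjusted p of 0.296. The signal peptidase subunits Spcs1 and Spcs2 had log2 fold changes of 0.17 and 0.20 (edgeR adjusted p 0.773 and 0.647).

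Survival and niche receptors had 0 edgeR calls among 31 genes. Their median of 0.15 turned to -0.01 without Control(M) library 3 or with limma voom, and to -0.0016 with a replicate block. Il6st, the shared signalling chain of the IL-6 receptor family, had 41.0, 48.4, 47.5 and 47.4 CPM in Control(M), against 20.8, 19.9, 29.0 and 24.97 CPM in Control(D). Mcl1, a survival protein on which plasma cells depend, had 92.6, 69.8, 33.6 and 117 CPM in Control(M), against 18.2, 26.5, 24.0 and 25.9 CPM in Control(D). Both were higher in all Control(M) libraries, with log2 fold changes of 0.96 ± 0.23 and 1.72 ± 0.50 (SE) and edgeR adjusted p of 0.116 and 0.287.

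B cell identity genes had 0 edgeR calls among 26. Their median of 0.32 turned to -0.08 without Control(M) library 3 and was 0.66 without Control(M) library 2. Ly6d, a marker of early B lineage cells, had 738, 508, 440 and 536 CPM in Control(M), against 242, 232, 275 and 339 CPM in Control(D), without overlap (edgeR adjusted p 0.272). Cd79a, which carries the signal of surface immunoglobulin, had 350 ± 28.4 CPM in Control(M) and 604 ± 122 CPM in Control(D) (SD, n = 4 each, edgeR adjusted p 0.653). The class II chain H2-Aa had 164, 24.2, 400 and 146 CPM in Control(M) and 180, 83.3, 55.4 and 220 CPM in Control(D). Fcmr, the IgM Fc receptor of B cells, had 59.9, 11.5, 140 and 41.9 CPM in Control(M) and 71.5, 40.4, 8.08 and 85.7 CPM in Control(D). The groups overlapped in both genes, and Control(M) library 3 was the highest of all 8 in both. The 11 class II genes had 0 calls. Their median of 0.43 turned to -0.27 without Control(M) library 3 and was 0.10 with limma voom.

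Of 38 interferon-stimulated genes edgeR called 0. Their median of -0.10 turned to 0.22 without Control(D) library 3, to 0.0017 without Control(M) library 3 and to 0.02 with limma voom. Gbp7, an interferon-inducible GTPase, had 51.8, 32.9, 42.3 and 28.4 CPM in Control(M), against 10.8, 5.96, 9.11 and 9.33 CPM in Control(D), without overlap. Its log2 fold change was 2.14 ± 0.66 (SE, edgeR adjusted p 0.310), and reads of other Gbp genes can be misassigned to it. The exonuclease Isg20 and the nucleic acid sensor Zbp1 also had all Control(M) libraries above (edgeR adjusted p 0.317 and 0.296). Rsad2, which encodes viperin, had 271 reads, all in Control(D) library 3, and 0 in Control(M).

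Of 13 mitochondrially encoded genes 0 were called, and all 13 had positive log2 fold changes (0.05 to 0.51). mt-Atp6, a subunit of ATP synthase, had 969, 1119, 956 and 1035 TPM in Control(M), against 613, 807, 741 and 773 TPM in Control(D), without overlap (edgeR adjusted p 0.23). The mitochondrial ribosomal RNA mt-Rnr2 went the other way, at 396, 327, 318 and 140 TPM in Control(M), against 648, 687, 545 and 476 TPM in Control(D). Mitochondrially encoded reads together were 0.918% ± 0.0671 of the library in Control(M) and 0.874% ± 0.115 in Control(D) (SD, n = 4 each, exact permutation p 0.543, adjusted 0.62). Of 37 cytosolic ribosomal protein genes 0 were called, with a median of -0.20, and of 34 nuclear-encoded oxidative phosphorylation genes 0 were called, with a median of 0.13. NF-kB targets (29 tested), mitosis genes (30) and stress genes (25) had 0 calls each, with medians of -0.04, -0.14 and 0.33. None of these 3 medians kept its sign with single libraries left out. The NF-kB median turned to 0.20 without Control(M) library 2, to 0.02 without Control(D) library 2 and to 0.03 without Control(D) library 4. The mitosis median ran between -0.72 without Control(M) library 3 and 0.11 without Control(D) library 4, and was also above 0 without Control(M) library 2 or 4. The stress median turned to -0.16 without Control(M) library 1 and was 0.01 with only the 2 control groups fitted. The plasma cell identity, secretion, ribosomal, oxidative phosphorylation and mitochondrially encoded lists kept the sign of their medians under each alternative run.

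Of the 11 lists of markers of other bone marrow cells, 0 tested members were called. Their part in the differences above was not tested. Summed neutrophil markers ranged from 40.9 to 215 CPM in Control(M) and from 65.6 to 577 CPM in Control(D). Monocyte and macrophage markers summed to 553 to 804 CPM in Control(M) and 449 to 557 CPM in Control(D), mostly through the cathepsin gene Ctss, while Lyz2 stood at 82.6 ± 25.5 CPM in Control(M) and 84.7 ± 31.3 CPM in Control(D) (SD, n = 4 each). T cell markers summed to 7.77 to 21.8 CPM in Control(M) and 8.79 to 25.9 CPM in Control(D). Erythroid markers summed to 4.28 to 8.89 CPM in Control(M) and 1.61 to 5.06 CPM in Control(D).

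The cytotoxic list was the only marker list for which the summed level of every Control(M) library was below that of every Control(D) library. It summed to 6.94 to 11.7 CPM in Control(M) and 17.1 to 36.2 CPM in Control(D). Its largest single contributor was Prf1, which encodes perforin, at 3.45, 5.07, 6.18 and 4.42 CPM in Control(M), against 31.3, 15.9, 32.5 and 12.99 CPM in Control(D) (edgeR adjusted p 0.516). Of the 6 members tested, only Prf1 had all Control(M) libraries below all Control(D) libraries, against 2.28% of all genes tested. The separation of the sums is thus that of Prf1 and not of the list as a set. The defining NK cell genes Ncr1 and Eomes averaged 0.183 and 0.0263 TPM in Control(M) and 0 and 0.00253 TPM in Control(D). The summed plasmacytoid dendritic cell markers stood the other way, at 1793 to 3804 CPM in Control(M) and 819 to 1157 CPM in Control(D). Of the 9 members tested, only Ly6c2 had all Control(M) libraries above all Control(D) libraries, while 2 had all below. Over all genes tested, 2.23% had all above and 2.28% all below. The median log2 fold change of the list was -0.16, so its members did not rise as a set. The largest contributor in both groups was Ly6c2, which plasma cells express, averaging 2354 CPM in Control(M) and 695 CPM in Control(D). Ly6c2 stood at 1537, 1842, 929 and 1250 TPM in Control(M) and 427, 296, 428 and 565 TPM in Control(D), while Siglech, a defining gene of that cell, averaged 0.148 TPM in each group. Ly6c2 had a log2 fold change of 1.76 ± 0.58 (SE) with an edgeR adjusted p of 0.347, and reads of its near-identical neighbours are uncertain.

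**Figure D5:**
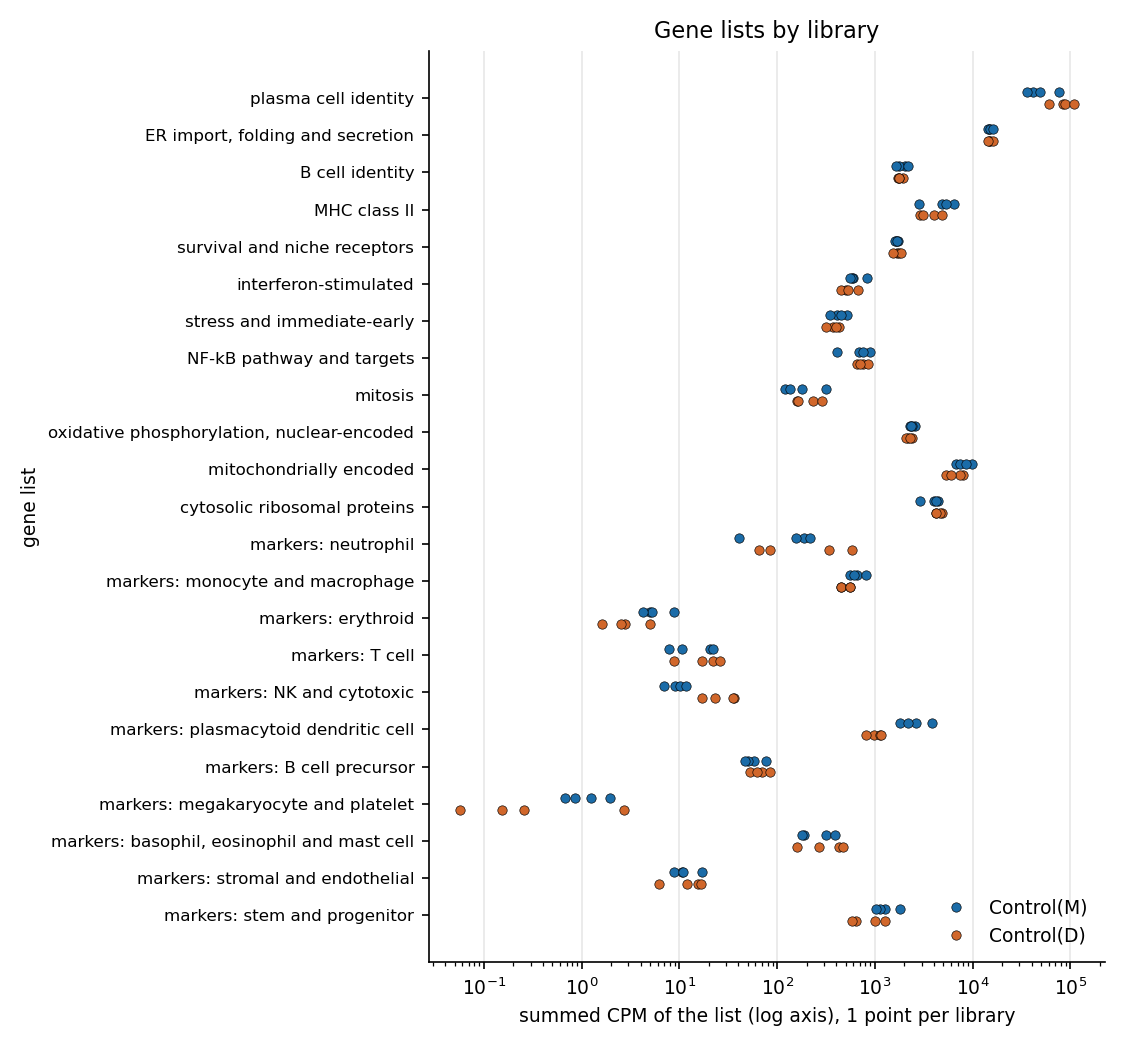
Summed CPM (log axis) of each gene list, with 1 point per control library and Control(M) drawn above Control(D). The import, folding and secretion list lies at 14183 to 16099 CPM over all 8 libraries, and the cytotoxic list at 6.94 to 11.7 CPM in Control(M) and 17.1 to 36.2 CPM in Control(D). Within the cytotoxic list only Prf1 has libraries that do not overlap between the groups.

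The remaining marker lists overlapped or were close to 0. B cell precursor markers summed to 46.8 to 77.3 CPM in Control(M) and 52.2 to 85.2 CPM in Control(D), almost wholly through Cd93 and Ebf1, while Rag2 was at 0 in all 8 libraries. Basophil, eosinophil and mast cell markers summed to 179 to 391 CPM in Control(M) and 161 to 475 CPM in Control(D), through Prg2 at 151 ± 67.4 TPM in Control(M) and 194 ± 89.5 TPM in Control(D) (SD, n = 4 each). Epx, a defining eosinophil gene, averaged 0 TPM in Control(M) and 0.0621 TPM in Control(D). Prss34, a basophil protease, had 30.8 CPM in Control(M) library 1 and 0.0644 CPM or less in the other Control(M) libraries. Stem and progenitor markers summed to 1032 to 1818 CPM in Control(M) and 579 to 1277 CPM in Control(D), mostly through Ly6a. Kit, the stem cell factor receptor, had 11.8, 11.2, 15.0 and 15.97 CPM in Control(M), against 0.587, 1.48, 3.94 and 4.97 CPM in Control(D), without overlap (edgeR adjusted p 0.426). Platelet and stromal markers summed to at most 1.96 and 16.9 CPM in Control(M) and 2.72 and 16.6 CPM in Control(D).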

How the data were processed

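Per the labels' protocols, cDNA of the sorted cells was primed on poly(A), extended by template switching, amplified by PCR and made into Nextera XT libraries. Per the submitters' processing notes, bcl2fastq 2.20.0.422, Salmon 1.3.0, DESeq2 1.32.0 and the build GRCm38 were used. The deposited tables give expected counts per transcript, estimated by Salmon and not whole numbers, and TPM, normalized within each library by the authors' run, per the file headers. The strand setting is not given in the sources used here, and no molecular identifiers are described.

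Counts were summed to genes with GENCODE mouse release 21: 139960 of 140825 transcripts matched, and the rest held 0.0712 to 0.0923% of reads in the control libraries. This gave 54203 genes, 426 of them immunoglobulin genes. Gene sums were rounded. One edgeR 4.0.16 fit (TMM, filterByExpr, robust quasi-likelihood test, R 4.3.3) of all 36 libraries tested 17116 genes, and genes under 0.05 after Benjamini-Hochberg adjustment were called. SE was derived from the fold change and its F statistic (log2 fold change over root F). CPM are TMM-scaled. Shares were compared with 2-sided exact permutation tests. Depth sets counting precision only: PCR copies stay in the counts. The fit was also run on simulated data, and the share of changes it recovered is not given here.

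Named genes followed a rule: the 25 most abundant genes by mean TPM and 10 immunoglobulin genes, called genes (in the lower direction, with 0 called, the 6 of smallest p), up to 4 members of smallest p per list and the 2 highest per marker list, the transgene targets, sex-linked genes, and the 10 most variable genes; 1 of the 25 is counted but not reported here. The members, the 25 gene lists and the rule were chosen with earlier results of these data known. Alternatives were DESeq2 1.42.0, its size factors in edgeR, limma 3.58.1 voom with quality weights, no filter, immunoglobulin or sex-linked genes left out, Xist as a covariate, only the groups compared, a replicate block, each library left out, TPM for shares, and other rankings; Xist as a covariate in the 8 controls alone was added after the data were seen. Permutations ran in scipy 1.17.1 under Python 3.11.15.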

Additional observations from a re-analysis of the deposited data

Results flagged for a closer look

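A library was singled out where its gap to the nearest of the other 3, divided by the range of its group, passed Dixon's 95% critical value for 4 samples. Of 270 groups of values tested, 24 passed (8.89%), and 8 of them were in Control(M) library 2. Chance gives about 5% for independent normal values only. These were CPM and shares, some of genes named for their spread, and a gene with reads in a single library of its group always passes. The excess over 5% is therefore not read as a sign of unusual libraries. Values are CPM unless stated, and no cause was tested.

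Control(M) library 2 was highest of its group for Slpi (34738, next 3476), Igkv1-117 (41142, next 5273), mt-Atp6 (1664, next 1238), mt-Atp8 (121, next 88.0), mt-Nd6 (70.3, next 54.2), Cgrrf1 (13.5, next 9.39), the Y-linked Kdm5d (3.81, next 0.618) and Cxcl12 (2.51, others 0). Control(M) library 4 was lowest for B2m (1945, next 3395), Rplp2 (27.5, next 41.6) and Ngp (5.296, next 30.3), and highest for Ubb (2023, next 1450). Control(M) library 3 was highest for Ighg3 (7112, next 2224), Ccnd1 (0.957, next 0.145) and Rgs1 (0.681, others 0). Control(M) library 1 was highest for Prss34 (30.8, next 0.0644) and lowest for Il6st (41.0, next 47.4).

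Control(D) library 1 was highest for Xist (84.6, next 2.23) and Itga2b (2.27, next 0.260), lowest for Hba-a1 (0.541, next 0.941), and highest in the share of its leading kappa V gene (9.36%, next 8.52%). Control(D) library 3 was highest for Igkv1-117 (6571, next 3851), Ftl1 (2596, next 1850) and Rsad2 (4.58, others 0).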

How the results depend on the processing

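Between the controls, edgeR called 7 genes, against 421 with DESeq2, 4 with no filter on low counts and 4 with Xist as a covariate; with each library left out the count ran between 0 and 10. Between Ikk2ca(M) and Ikk2ca(D), 0 became 294 with DESeq2, 3 with limma voom and 1 with only the groups compared, and stayed between 0 and 0 with libraries left out. The difference of the cohort effects gave 270 with DESeq2 and 1 with limma voom, and 0 to 1 with libraries left out (1 without Control(D) library 4). The cause of these shifts was not tested. Large2 kept its call under 14 of 18 alternatives, Tdrkh under 13, Hivep3 under 10, Gpm6a under 8 and Cgrrf1 under 6.

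Same-numbered controls correlated at 0.252, 0.0608, -0.268 and 0.227 in their deviations, so the numbers were not taken as pairs; with a replicate block the 3 counts were 7, 0 and 0, and 5 of the first 7 were shared with the fit without it.

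With libraries left out, differences in percentage points ran between 2.81 and 3.55 for immunoglobulin, 42.0 and 55.1 for Ighm, -50.6 and -35.5 for Igha, -7.77 and -4.49 for Ighg, -0.00183 and 0.00142 for Ighd, 3.28e-05 and 0.00357 for Ighe, -2.95 and -1.68 for lambda, and 0.00969 and 0.0970 for mitochondrial reads. Ighd turned positive in TPM (0.000327) and without Control(M) library 1 (0.000207), Control(M) library 2 (0.000621) or Control(D) library 4 (0.00142).

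Of 123 named genes, 21 changed sign under some alternative. With each library left out, the log2 fold change ran between -0.29 and 0.10 for Cd93, -7.37 and 1.70 for Cxcl12, -0.45 and 0.66 for Fcmr, -0.23 and 0.13 for Ftl1, -0.27 and 0.81 for H2-Aa, -0.0254 and 0.78 for H2-DMa and -0.0826 and 0.85 for Hbb-bs. It ran between -0.58 and 1.88 for Igkv1-117, -0.19 and 0.18 for Ikbkb, -0.65 and 2.84 for Itga2b, -0.0703 and 0.1 for Ly6e, -0.20 and 0.21 for Lyz2, -1.21 and 0.13 for Ngp and -0.41 and 0.0101 for Pecam1. It ran between -6.69 and 2.199 for Prss34, -0.16 and 0.0584 for Rpl41, -0.93 and 0.0411 for S100a8, -0.51 and 1.90 for Slpi, -0.00698 and 0.0959 for Txndc5 and -1.40 and 0.16 for Vpreb3. With Xist as a covariate, the reversed values were 0.0305 for Cd93, -0.20 for Itga2b, 0.0479 for Lyz2, -1.72 for Prss34 and -0.58 for Xist. In the 8 controls alone with Xist as a covariate, chosen after seeing the data, the reversed values were 0.0681 for Cd93, -0.92 for Cxcl12, -0.12 for Fcmr, 0.0241 for Ftl1, -2.48 for Itga2b and -0.82 for Xist. With limma voom, the reversed values were -2.71 for Cxcl12, -0.0965 for Itga2b, 0.0266 for Lyz2 and 0.13 for Ngp. With the replicate block, the reversed values were -0.45 for Prss34. Low counts limit Tdrkh and Gm38226.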
